A study of Mus musculus with 130 samples.

Results

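The 10 genes described here are Tmem41b, Ppm1a, Bzw1, Tpm3, Clpx, Pcmt1, Rnf125, Frg1, Ntmt1 and Pphln1. They were chosen by their own readout in these embryos: each had a fall with SR1848 that was large against the spread between embryos of 1 group. Their difference between the groups and the spread around it are therefore given as values, with no test. The 10 are part of 13192 genes that had enough counts to be tested, and of 30274 genes with any count. All 10 passed that filter.

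The embryos were B6129F1 mouse embryos at the 2-cell stage, each made into its own Smart-seq2 library, a full-length cDNA method, here primed with oligo-dT so that polyadenylated RNA was read. Zygotes were collected 5 hours after fertilization and cultured in KSOM medium, in wet chambers without oil, from hour 6 on. The treated embryos (n = 80) were kept in 10 µM SR1848, a small molecule used to block the orphan nuclear receptor Nr5a2 (LRH-1), and the controls (n = 50) in 0.1% DMSO. The design text lists 56 controls, whereas samples and counts were deposited for 50, all of them analysed here. All embryos share 1 hybrid background, and none carries a gene deletion. Mothers, culture drops and plates are not in the labels, so p-values here measure only how these embryos vary, and some of that may be technical.

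At zygotic genome activation the embryo begins to transcribe its own genes, and in mouse the major wave falls in the 2-cell stage. RNA in a 2-cell embryo is thus a mixture of messages stored in the oocyte, which are being degraded, and of messages made anew. Nr5a2 binds DNA as a monomer, and the series asks what it contributes to genome activation. The 10 genes have no common pathway in textbook knowledge: they act in autophagy, dephosphorylation, start-codon choice, the actin cytoskeleton, mitochondrial proteolysis, protein repair, ubiquitination, splicing, N-terminal methylation and chromatin silencing.

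Total estimated counts ran from 2730852 to 7824458 in the SR1848 embryos (median 4657122) and from 3173683 to 8438537 in the DMSO embryos (median 5476180). Of the 13192 genes tested, 82.1% passed edgeR's quasi-likelihood test at an adjusted p of 0.05, 45.6% of all tested genes being higher and 36.5% lower with SR1848. Scaled to 30 oocyte transcripts instead of the whole library, called oocyte scaling from here on, 2288 genes were higher and 7221 lower, and the log2 fold change over the tested genes had a median of -0.63 instead of 0.24. All 12 oocyte markers and all 10 markers of the 2-cell stage were detected. Summed cumulus cell markers had a median of 7.85 CPM (counts scaled to library size; 0.939 to 39.3) with SR1848 and 5.65 CPM (0.667 to 19.9) with DMSO, and sperm markers were lower still, with Smcp at 0 in every embryo. Summed blood cell markers had a median of 216 CPM (61.2 to 678) with SR1848 and 39.4 CPM (12.1 to 143) with DMSO, led by Hba-a2, with Hbb-bt at 0 in every embryo. The part of these markers in the results was not tested.

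Each of the 10 genes lies on a different chromosome (GENCODE M21 annotation of mm10), and 5 of them act on proteins, RNA and chromatin. Pcmt1 (ENSMUSG00000019795, chromosome 10, 7629373 to 7681136, minus strand) encodes a methyltransferase that starts the repair of isoaspartate in aged proteins. Rnf125 (ENSMUSG00000033107, chromosome 18, 20944625 to 20983862, plus strand) encodes an E3 ubiquitin ligase known from human cells to mark the RNA sensor RIG-I for degradation. Frg1 (ENSMUSG00000031590, chromosome 8, 41397459 to 41417074, minus strand) encodes an RNA-binding protein found in catalytically active spliceosomes. Ntmt1 (ENSMUSG00000026857, chromosome 2, 30807826 to 30823033, plus strand) encodes the enzyme that methylates the N-terminus of RCC1, SET and CENPA. Pphln1 (ENSMUSG00000036167, chromosome 15, 93398350 to 93491510, plus strand) encodes periphilin, a subunit of the HUSH silencing complex in human cells.

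The other 5 act in the cytoplasm and its organelles. Tmem41b (ENSMUSG00000047554) spans chromosome 7, 109972187 to 109986929, minus strand, and encodes a lipid scramblase of the endoplasmic reticulum with a VTT domain that is needed to form autophagosomes. Ppm1a (ENSMUSG00000021096, chromosome 12, 72757455 to 72799819, plus strand) encodes a metal-dependent serine/threonine phosphatase known to act on SMAD proteins and AMPK. Bzw1 (ENSMUSG00000051223, chromosome 1, 58392898 to 58407353, plus strand) encodes an eIF5-mimic protein that competes with eIF5 and makes start-codon choice stricter. Tpm3 (ENSMUSG00000027940, chromosome 3, 90072649 to 90100902, plus strand) encodes a tropomyosin that wraps actin filaments. Clpx (ENSMUSG00000015357, chromosome 9, 65294260 to 65330658, plus strand) encodes the unfoldase of the mitochondrial ClpXP protease.

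Promoters were taken from the RefSeq promoter table (GRCm38.p6, 250 bases before to 50 bases after a start), with none examined for Rnf125 and Frg1. The set examined was 12 promoters of 8 of the 10 genes. Those of Tmem41b, Tpm3, Clpx and Ntmt1 are printed because the 3 pairs of genes that varied together most closely between DMSO embryos, described further on, are made up of them, and because transcripts starting within 200 bases of a start shown carry most of each gene's reads in DMSO embryos (Tmem41b 68.8%, Tpm3 98.3%, Clpx 97.5%, Ntmt1 97.2%). Both Tpm3 promoters are shown, since the Nr5a2 sequence lies in one and the reads start at the other. The sequences run 5′ to 3′ on the gene's strand, and capitals mark every match, on either strand, to the motifs named in the paragraphs that follow.
Tmem41b, chr7:109986181-109986480, minus strand: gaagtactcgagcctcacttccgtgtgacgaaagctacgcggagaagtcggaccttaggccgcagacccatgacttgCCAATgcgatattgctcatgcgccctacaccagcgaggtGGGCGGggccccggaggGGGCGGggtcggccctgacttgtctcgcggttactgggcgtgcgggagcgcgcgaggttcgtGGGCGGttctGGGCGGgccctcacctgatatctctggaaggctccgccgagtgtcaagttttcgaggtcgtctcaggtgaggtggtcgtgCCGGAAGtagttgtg
Tpm3 upstream, chr3:90072401-90072700, plus strand: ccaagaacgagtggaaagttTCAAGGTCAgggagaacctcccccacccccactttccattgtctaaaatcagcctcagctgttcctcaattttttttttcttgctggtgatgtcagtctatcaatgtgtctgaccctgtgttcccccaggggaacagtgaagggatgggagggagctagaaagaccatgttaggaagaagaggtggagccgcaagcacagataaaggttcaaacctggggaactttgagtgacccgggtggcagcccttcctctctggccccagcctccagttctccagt
Tpm3 downstream, chr3:90079271-90079570, plus strand: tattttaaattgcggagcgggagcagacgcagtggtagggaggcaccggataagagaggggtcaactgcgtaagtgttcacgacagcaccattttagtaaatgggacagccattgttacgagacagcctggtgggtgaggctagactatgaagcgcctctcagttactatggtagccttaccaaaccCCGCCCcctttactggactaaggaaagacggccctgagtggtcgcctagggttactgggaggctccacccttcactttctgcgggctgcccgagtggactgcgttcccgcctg
Clpx, chr9:65294010-65294309, plus strand: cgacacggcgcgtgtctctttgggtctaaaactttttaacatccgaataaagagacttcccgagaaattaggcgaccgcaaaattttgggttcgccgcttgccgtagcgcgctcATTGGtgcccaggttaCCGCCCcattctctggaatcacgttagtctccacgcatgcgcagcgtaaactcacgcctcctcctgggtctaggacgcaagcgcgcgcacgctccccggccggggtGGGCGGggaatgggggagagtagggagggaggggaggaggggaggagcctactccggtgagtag
Ntmt1, chr2:30807718-30808017, plus strand: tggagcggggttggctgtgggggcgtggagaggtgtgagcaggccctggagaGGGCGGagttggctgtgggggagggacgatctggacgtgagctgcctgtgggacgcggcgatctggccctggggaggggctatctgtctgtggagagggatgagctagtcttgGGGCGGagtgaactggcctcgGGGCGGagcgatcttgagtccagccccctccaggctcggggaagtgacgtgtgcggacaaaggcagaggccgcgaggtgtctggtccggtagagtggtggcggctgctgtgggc

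The motif bound by Nr5a2, searched as TCAAGGNCA on both strands, matched 1 of the 12 promoters, at position -230 of the upstream Tpm3 promoter, and 1.62% of all 32851 promoters in the table. Transcripts starting within 200 bases of that start held 0.758 CPM with SR1848 and 3.0 CPM with DMSO, 0.505% of the gene's reads in DMSO embryos. Transcripts starting at the downstream Tpm3 promoter held 97.0 CPM with SR1848 and 586 CPM with DMSO, 98.3% of the gene, and that window has no match. A window of 300 bases shows only which letters it holds, and binding was not measured here.

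The GC box (GGGCGG) was in 7 of the 12 promoters, which belong to 7 genes, against 35.7% of all promoters. The 12 were also rich in G and C, with a median of 67% (52 to 78.7%) against 52.7% over the table, and had a median of 26.5 CpG (3 to 53) against 7. The Pphln1 windows overlap, as do those of Ntmt1, so shared bases count in both. An ETS motif (CCGGAAG) was in 4 promoters of 3 genes (8.86% of all promoters), at position 35 in Tmem41b and at 1 site shared by both Pphln1 windows. CCAAT was in 2 (37.4% of all), at position -173 in Tmem41b and position -136 in Clpx. CACGTG (7.15% of all), the YY1 motif GCCATNTT (6.05%) and TGACGTCA (1.79%) were each in 1, and TATAAA (13.6% of all) was in none. The half-site AGGTCA was in 3 promoters (16.3% of all), 1 of them inside the TCAAGGTCA of Tpm3. These counts describe letters in a few windows and are set beside the whole table only. Some of the 12 promoters carry few of their gene's reads in DMSO embryos. Transcripts starting within 200 bases of the start held at most 22.6% of the gene for each promoter of Ppm1a, Bzw1 and Pcmt1. The Pcmt1 promoter with a GC box held 0.337%, whereas each Pphln1 promoter held 87.3%. The motif, GC and CpG counts thus do not describe only the promoters that make most of each RNA.

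The most abundant of the 10 was Tmem41b. It stood at 113 CPM in the lowest, 237 CPM in the median and 521 CPM in the highest of the 80 SR1848 embryos, against 1189, 2193 and 3763 CPM in the 50 DMSO embryos (CPM with TMM-scaled library sizes). The means were 237 ± 74.6 CPM with SR1848 and 2235 ± 602 CPM with DMSO (SD between embryos), and the log2 fold change was -3.24 (SE 0.079). The highest SR1848 embryo was 2.28-fold below the lowest DMSO embryo. Such values are relative abundances, so less of this RNA per embryo and more of other RNA cannot be told apart.

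Ppm1a was close to Tmem41b in size of difference. Its lowest, median and highest SR1848 embryos had 31.9, 85.3 and 163 CPM, against 386, 860 and 1571 CPM with DMSO (means 90.3 ± 28.7 and 865 ± 222 CPM, log2 fold change -3.26). The groups did not overlap and were 2.37-fold apart at their nearest embryos, the widest gap of the 10 genes. Bzw1 had 49.6, 141 and 282 CPM with SR1848, against 580, 1083 and 1658 CPM with DMSO (means 143 ± 46.1 and 1076 ± 251 CPM, log2 fold change -2.91). Its nearest embryos were 2.06-fold apart.

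Tpm3 and Pphln1 had the smallest differences. Tpm3 ran over 33.8, 101 and 173 CPM with SR1848, against 356, 578 and 1297 CPM with DMSO (means 105 ± 32.5 and 596 ± 148 CPM, log2 fold change -2.50). Pphln1 ran over 21.3, 51 and 110 CPM with SR1848, against 159, 287 and 540 CPM with DMSO (means 53.4 ± 19.2 and 302 ± 71.3 CPM, log2 fold change -2.50). The median SR1848 embryo kept 17.5% of the DMSO median of Tpm3 and 17.8% of that of Pphln1, and no SR1848 embryo reached a DMSO embryo for either gene.

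Clpx and Ntmt1 had the largest. Clpx ran over 3.21, 26.1 and 100.4 CPM with SR1848, against 209, 442 and 878 CPM with DMSO (means 29.1 ± 16.2 and 453 ± 132 CPM, log2 fold change -3.96). Ntmt1 ran over 0.914, 9.49 and 28.9 CPM with SR1848, against 48.9, 144 and 341 CPM with DMSO (means 10.4 ± 5.45 and 149 ± 50.1 CPM, log2 fold change -3.83). The median SR1848 embryo kept 5.90% of the DMSO median of Clpx and 6.60% of that of Ntmt1. These were also the genes of the 10 with the widest range among SR1848 embryos, 31.3-fold and 31.6-fold, and the lowest Ntmt1 embryo rests on 3 counts.

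The other 3 lay between. Rnf125 had 6.95, 28.3 and 76.2 CPM in the lowest, median and highest SR1848 embryos, against 161, 259 and 420 CPM with DMSO (means 29.6 ± 13.5 and 266 ± 63.4 CPM, log2 fold change -3.17). Frg1 had 3.92, 10.8 and 39.9 CPM with SR1848, against 62.6, 109 and 222 CPM with DMSO (means 12 ± 6.0 and 116 ± 34 CPM, log2 fold change -3.27). Pcmt1 had 5.63, 13.4 and 38.2 CPM with SR1848, against 52.2, 115.6 and 194 CPM with DMSO (means 14.6 ± 6.15 and 123 ± 32.4 CPM, log2 fold change -3.07). The groups did not overlap for any of the 3, and Pcmt1 had the narrowest gap of the 10 genes, 1.36-fold. All 10 Pcmt1 transcripts also have an unnamed second entry with equal counts in every embryo, so the named level is too low by that share while its fold change is not touched.

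**Figure D1:**
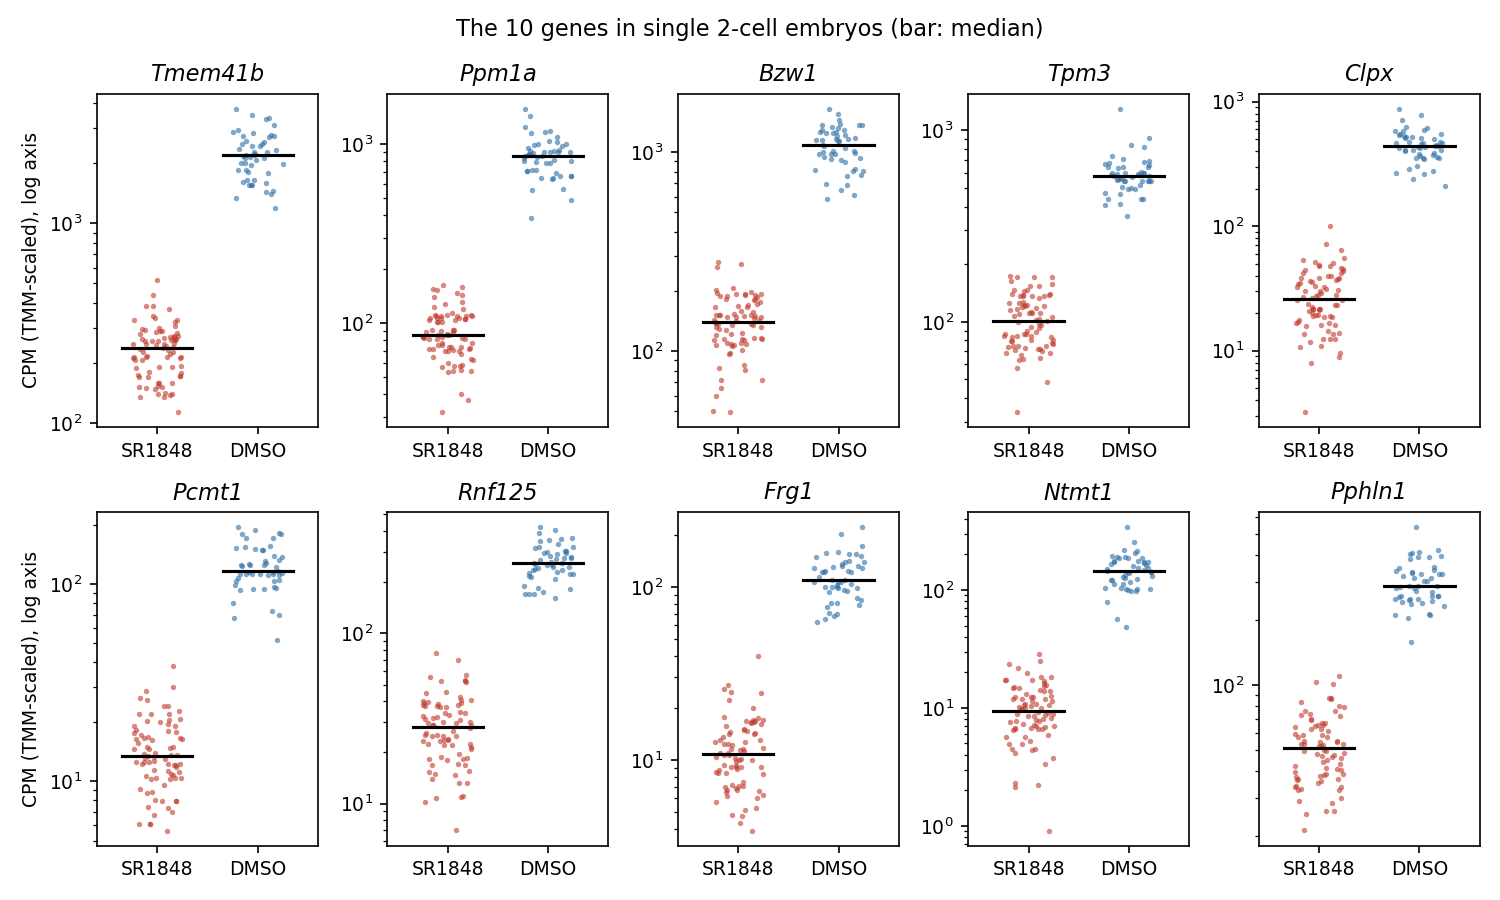
CPM (TMM-scaled, log axis) of the 10 genes, 1 point per embryo and 1 panel per gene, with SR1848 embryos (n = 80) left of DMSO embryos (n = 50) and a bar at the median. In every panel the highest SR1848 embryo lies below the lowest DMSO embryo, by 1.36-fold for Pcmt1 up to 2.37-fold for Ppm1a.

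Every SR1848 embryo was below every DMSO embryo in 10 of the 10 genes, as in 223 of all tested genes (1.69%). A difference of at least 8-fold was reached by 7 of them, as by 553 of all tested genes that passed the test (4.19%). The rule that chose the genes used this contrast, so nothing is read from these counts. In the authors' deposited table of their own comparison, which is ordered by adjusted p, the best-placed transcript was in row 1 for Tmem41b, row 2 for Ppm1a and row 4 for Tpm3. The best row of Pcmt1, Pphln1 and Bzw1 in the authors' deposited table was 12, 14 and 15, and Frg1, Rnf125, Ntmt1 and Clpx first appeared in rows 118, 148, 464 and 822.

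The spread between embryos is the other value by which the genes were chosen, so it too is a description. Their coefficient of variation (SD over mean) had a median of 39% with SR1848 and 26% with DMSO. Over the 3292 genes called lower with at least 20 CPM in DMSO embryos the medians were 65.2% and 37.7%. Over 9 genes picked for the deepest falls in these same embryos they were 95.1% and 34.8%. Levels of these 9 with SR1848 can be low, with means of 6.42 CPM for Timd2 and 10.6 CPM for Sumo2. The part of such low levels in the coefficient was not tested. Counting error of reads alone would give the 10 genes a coefficient of 3.05 to 14.5% with SR1848 and of 0.89 to 3.85% with DMSO. Reads carry no molecular identifiers, so the error from sampling molecules may be larger and was not measured. Among the 80 SR1848 embryos, 78 were within 2-fold of the group median for Tmem41b and Tpm3, and 65 for Clpx and Ntmt1.

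Expressed as the fall divided by the pooled SD of log2(CPM + 1), the 10 genes took places 1 (Tmem41b, -7.69), 2, 5, 10, 11, 12, 14, 20, 21 and 23 (Pphln1, -5.66) among the 3292. The median of the 10 was -6.11, and that of the 3292 was -1.98. The places between are held by genes with deeper and more variable falls: Plac9b and Gm49384 are 3rd and 4th, Timd2 6th and Arfrp1 7th. Mat2a, which makes S-adenosylmethionine, comes just after Pphln1 at place 24, with 18.7 ± 12.3 CPM with SR1848 and 405 ± 117 CPM with DMSO (log2 fold change -4.44). Nr5a2 itself was at place 353, with 10.5 ± 7.66 CPM with SR1848 and 99.3 ± 27.7 CPM with DMSO. So the 10 are not simply the first 10 on this measure.

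By spread alone, among the 1125 genes at least 4-fold lower, Tpm3, Tmem41b, Ppm1a, Pphln1 and Bzw1 were the 5 least variable in this order. Pcmt1 was at place 9, Frg1 at 22 and Rnf125 at 23, while Ntmt1 and Clpx were at 79 and 90. Among all 3292 genes ranked, most with smaller falls, Tpm3 was at place 32 by spread, Tmem41b at 43, Ppm1a at 56, Pphln1 at 72, Bzw1 at 75, Pcmt1 at 168, Frg1 at 281, Rnf125 at 308, Ntmt1 at 700 and Clpx at 752. Ntmt1 and Clpx thus rank high by the size of their difference. The spread also depends on the scaling. With oocyte scaling the median coefficient of variation was 74.6% with SR1848 and 43.7% with DMSO, and 7 of the 10 genes were without overlap, as were 170 of all tested genes (1.29%). For Tpm3 and Ntmt1 78 of 80 SR1848 embryos, and for Pphln1 79, were then below every DMSO embryo.

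**Figure D2:**
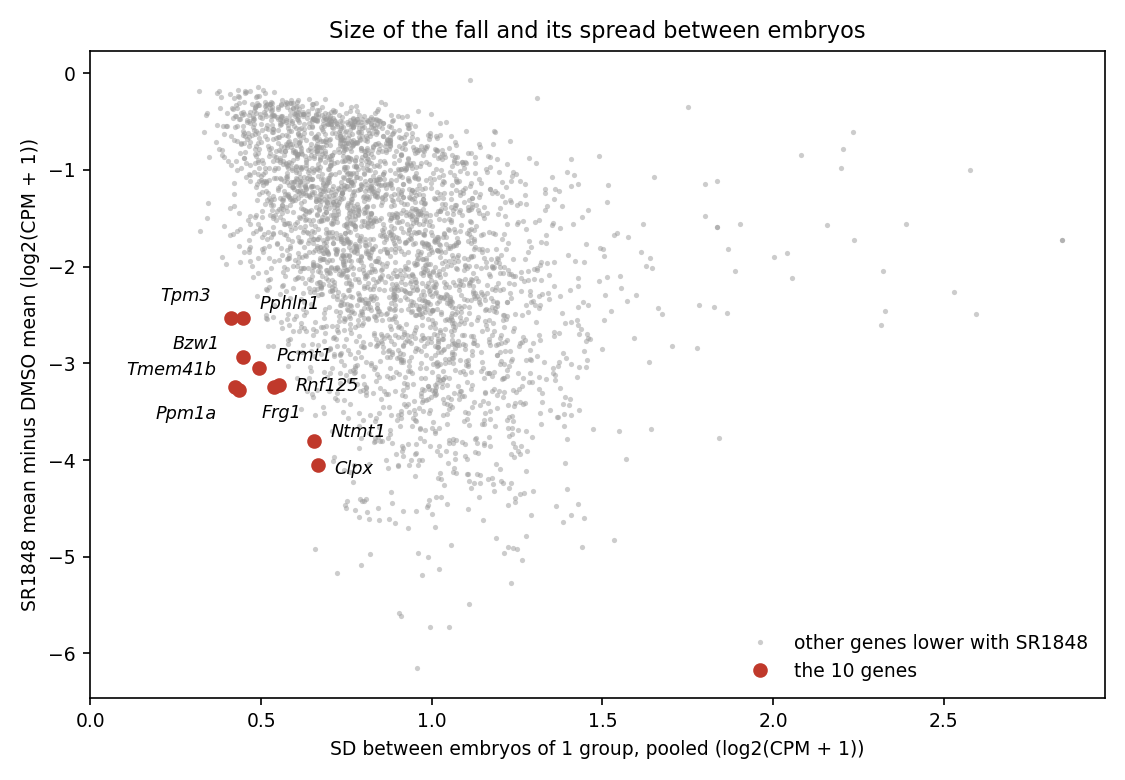
Difference between the SR1848 mean and the DMSO mean (y axis) against the pooled SD between embryos of 1 group (x axis), both of log2(CPM + 1), for the 3292 genes called lower with at least 20 CPM in DMSO embryos. The 10 genes, in red, lie along the left edge of the cloud, with Tpm3 at the smallest SD and Ntmt1 and Clpx lower and to the right.

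Levels between genes were compared per transcript length, in TPM. Tmem41b led with 297 ± 120 TPM with SR1848 and 3596 ± 900 TPM with DMSO. Ppm1a (92.5 ± 32.9 and 1053 ± 272 TPM) and Bzw1 (114 ± 41.6 and 1029 ± 223 TPM) came next and were not set apart in DMSO embryos, where Ppm1a was the higher in 23 of 50. Tpm3 (93.7 ± 29 and 488 ± 109 TPM) and Pphln1 (67.4 ± 24 and 441 ± 92.6 TPM) followed, with Tpm3 the higher in 30 of 50 DMSO embryos. Pcmt1, with its unnamed copies counted in, had 35.2 ± 17.5 TPM with SR1848 and 346 ± 89.1 TPM with DMSO.

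Rnf125 (33 ± 15.2 TPM with SR1848, 328 ± 69.7 TPM with DMSO), Clpx (medians 15.4 and 285 TPM), Ntmt1 (16.6 ± 10.2 and 215 ± 70.3 TPM) and Frg1 (21.5 ± 9.15 and 192 ± 46.5 TPM) were the lowest in DMSO embryos. Some neighbours in this order were not set apart: Pcmt1 was above Rnf125 in 27 of 50 DMSO embryos and Ntmt1 above Frg1 in 30, whereas Clpx was above Ntmt1 in 49. In SR1848 embryos the order kept Tmem41b first, and Clpx and Ntmt1 moved to the bottom, below Frg1.

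The transcripts of a gene were not all lower to the same degree. The authors' table of estimated counts lists 71 transcripts of the 10 genes, of which 43 had enough counts for a fold change. Of these, 34 had a log2 fold change below -1, and the other 9, from 6 genes, lay between -0.82 and 1.45. In 16 of the 43 every SR1848 embryo was below every DMSO embryo, as in 289 of 25734 transcripts tested in all (1.12%), and nothing is read from this count either. kallisto divides reads between overlapping transcripts by estimate, so the split within a gene is less certain than its sum.

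Frg1 showed the sharpest contrast. Its protein-coding transcript Frg1-201 had 5.59 ± 5.67 CPM with SR1848 and 113 ± 34 CPM with DMSO (log2 fold change -4.38), while the non-coding Frg1-202 had 6.43 ± 2.41 CPM with SR1848 and 3.31 ± 1.25 CPM with DMSO (0.89). Transcript shares of a gene, here and below, are means over embryos of the share in each embryo. Frg1-201 was 39.6 ± 21.9% of the gene's reads with SR1848 and 96.9 ± 1.65% with DMSO. The summed gene understates the difference in its coding transcript.

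Ppm1a showed a similar shift. Its transcript with a retained intron, Ppm1a-208, had 1.06 CPM with SR1848 and 123 CPM with DMSO (log2 fold change -6.86) and was at 0 in 48 of 80 SR1848 embryos. It was 1.09% of the gene's reads with SR1848 and 14.3% with DMSO. The main coding transcript Ppm1a-205 had 23.8 CPM with SR1848 and 368 CPM with DMSO (log2 fold change -4.0). The long coding transcript Ppm1a-201 had 14.3 CPM with SR1848 and 24.3 CPM with DMSO (-0.82), making 16.1% of the gene with SR1848 and 2.87% with DMSO. An annotated target of nonsense-mediated decay, Ppm1a-203, had a log2 fold change of -2.82 and was 56.5% of the gene with SR1848 and 39.3% with DMSO.

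In Tmem41b the coding transcript Tmem41b-203 had 80.5 CPM with SR1848 and 742 CPM with DMSO (log2 fold change -3.27), and Tmem41b-206 and Tmem41b-205, annotated as a decay target and a retained intron, both had -3.81. A second coding transcript, Tmem41b-202, had 33 ± 26.4 CPM with SR1848 and 39.1 ± 24 CPM with DMSO (-0.29), which is 14.7% of the gene with SR1848 and 1.92% with DMSO. The SDs of this transcript are wider than the difference. All 3 abundant Bzw1 transcripts were lower, with log2 fold changes of -3.30 for Bzw1-202, -3.13 for Bzw1-203 and -2.34 for Bzw1-201. Tpm3 was nearly a single transcript, Tpm3-201, which was 86.8% of the gene with SR1848 and 94% with DMSO and had a log2 fold change of -2.66.

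Both Clpx coding transcripts were lower to a similar degree, Clpx-201 by a log2 fold change of -3.96 and Clpx-202 by -4.19. Rnf125 differed between its transcripts: Rnf125-202 had 25.3 CPM with SR1848 and 168 CPM with DMSO (-2.79), and Rnf125-201 had 4.38 and 98.8 CPM (-4.53). Pcmt1-210, the main Pcmt1 transcript, had a log2 fold change of -3.98, and the longer Pcmt1-208 one of -0.70. The Ntmt1 transcripts Ntmt1-201 and Ntmt1-207 had -4.60 and -3.84. Pphln1-203 had 22.1 CPM with SR1848 and 203 CPM with DMSO (-3.26), whereas the minor coding transcript Pphln1-204 had 8.64 ± 7.84 and 3.06 ± 2.18 CPM (1.45).

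**Figure D3:**
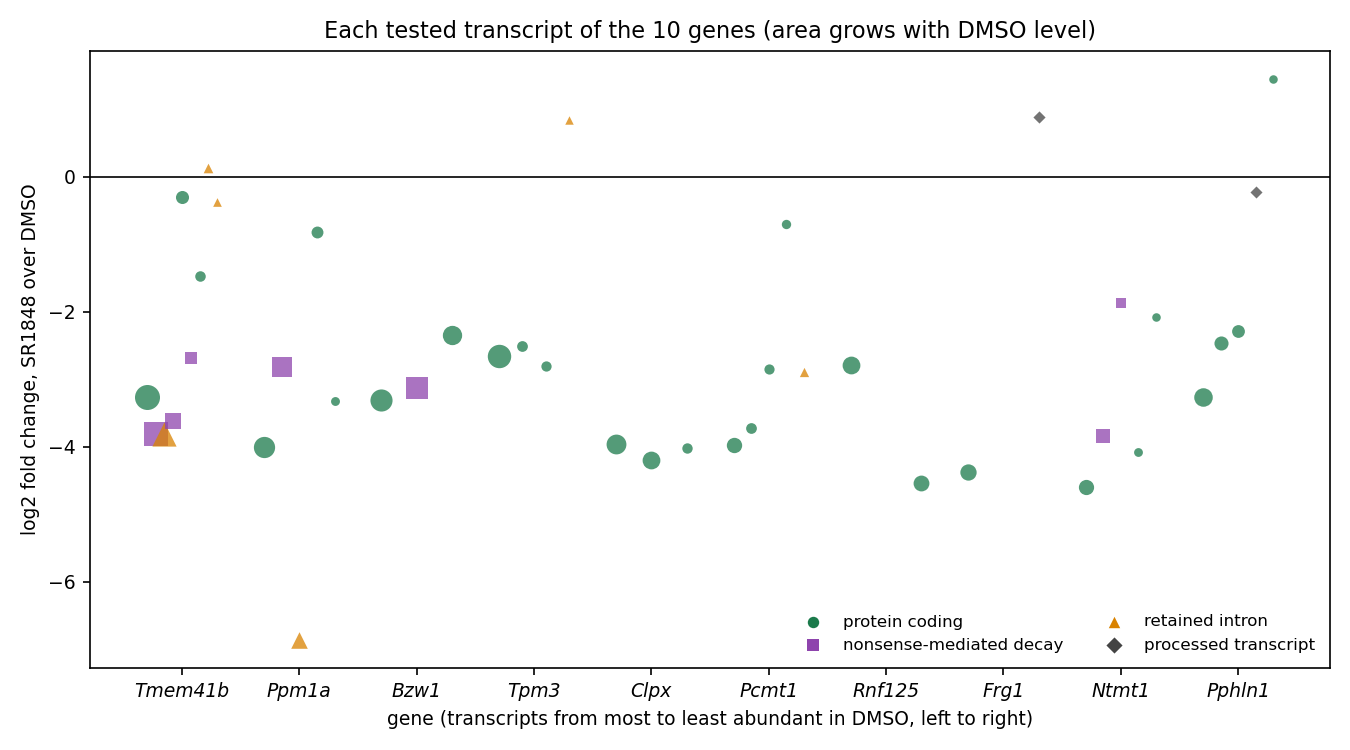
Log2 fold change, SR1848 over DMSO, of the 43 transcripts of the 10 genes with enough counts, by gene and, within a gene, from most to least abundant in DMSO embryos. Marker shape gives the annotated transcript type and marker area grows with the DMSO level. The abundant transcripts lie between -2 and -5 apart from Ppm1a-208 at -6.86, and the transcripts above -1 are minor ones in DMSO embryos.

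In 6 of the genes the coding transcripts with the longest and the shortest 3′ UTR differed in that length by at least 500 bases. The longest was lower by less in 5 of the 6. In Ppm1a the transcript with 6078 bases after the stop codon had a log2 fold change of -0.82, and the one with 131 bases had -4.0. The same order held in Bzw1 (2287 bases, -2.34, and 65 bases, -3.30), Pcmt1 (1633 bases, -2.84, and 316 bases, -3.98), Pphln1 (2342 bases, -2.47, and 140 bases, -3.26) and Tpm3 (1365 bases, -2.51, and 329 bases, -2.81). Tmem41b was the other way round, with 2595 bases at -1.48 and 1297 bases at -0.29. Both of these Tmem41b transcripts are minor in DMSO embryos (12.3 and 39.1 CPM). The main coding transcript Tmem41b-203 (742 CPM) has 1478 bases and had -3.27, and was not part of this comparison.

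The same comparison over all genes gave a milder lean. The longest 3′ UTR went with the smaller fall in 151 of 223 genes at least 4-fold lower (67.7%, median difference 0.48 on the log2 scale), and with the higher fold change in 1068 of 1930 genes in all (55.3%, median difference 0.12). Nothing particular to the 10 genes is read from 6 of them.

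Relatives and partners of each gene's product were then examined, where the rule had not used the values. Each list is to be set beside all tested genes, of which 45.6% were higher and 36.5% lower. With oocyte scaling 2288 of all 13192 tested genes were higher and 7221 lower. Tmem41b is joined by genes of VTT-domain proteins and autophagy: of 25 tested, 6 were higher, 15 lower and 4 not called (median log2 fold change -0.58; all tested genes 0.24). Vmp1, the other VTT scramblase of autophagosome formation, fell to 13.4 ± 8.72 CPM with SR1848, against 283 ± 105 CPM with DMSO (log2 fold change -4.40, edgeR adjusted p = 5.1e-55), and its groups did not overlap. Gabarapl2, an ATG8-family protein, had 45.1 CPM with SR1848 and 473 CPM with DMSO (-3.39), also without overlap. Atg14 (-1.98), Map1lc3b (-1.68) and the paralog Tmem41a (-2.11) fell as well. With oocyte scaling, 0 were higher and 22 lower.

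The family of Ppm1a had a direction that depended on the scaling. Of 13 tested metal-dependent phosphatases 8 were higher, 3 lower and 2 not called (median 0.46), but with oocyte scaling 1 was higher, 6 lower and 6 not called. The closest relative Ppm1b had 96.4 ± 35.6 CPM with SR1848 and 69.2 ± 13.6 CPM with DMSO, a log2 fold change of 0.48 that was -0.36 with oocyte scaling. Pdp1, a phosphatase of pyruvate dehydrogenase, rose to 37.2 CPM with SR1848, against 9.28 CPM with DMSO (2.00), and Ppm1h rose by 0.90, a call lost with oocyte scaling. Pdp2 (-1.87) and Ppm1g (-1.29), the most abundant of the list, fell.

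Genes of start-codon choice and eIF2, the partners of Bzw1, were lower in 13 of 16, higher in 2 and not called in 1 (median -1.57; 16 of 16 lower with oocyte scaling). Eif2s1, the alpha subunit of eIF2, fell to 33 ± 15.6 CPM with SR1848, against 353 ± 109 CPM with DMSO (-3.42, edgeR adjusted p = 1.3e-59). Eif2s1, Eif2s3x and Eif2a were without overlap between the groups. The paralog Bzw2 fell to 15.9 ± 10.4 CPM with SR1848, against 64.6 ± 24.2 CPM with DMSO (-2.02), and Eif5, the factor whose fold Bzw1 mimics, fell to 888 CPM with SR1848, against 1596 CPM with DMSO (-0.85). Eif2b4, of the exchange factor eIF2B, fell by 1.67 on the log2 scale.

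Tropomyosin and actin-filament genes, the partners of Tpm3, split: of 23 tested 9 were higher, 7 lower and 7 not called (median 0.069; 3 higher and 15 lower with oocyte scaling). Tpm1 was rare and fell to 1.87 CPM with SR1848, against 7.63 CPM with DMSO (-2.01). Tpm4 had 7.76 CPM with SR1848 and 4.47 CPM with DMSO (0.79, edgeR adjusted p = 0.055, not called). The actin severing genes Cfl1 (-0.77) and Cfl2 (-1.17) fell, Tmod2 rose by 1.37, and Actb had 0.55, which was -0.34 with oocyte scaling. Tpm2 was too low to test.

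Every one of the 25 tested mitochondrial protease and chaperone genes was called, 12 higher and 13 lower, where 82.1% of all tested genes were called. Their median log2 fold change was -0.40, and with oocyte scaling 4 were higher and 17 lower. Clpp, the proteolytic partner of Clpx, fell to 6.08 ± 4.55 CPM with SR1848, against 77.3 ± 25.5 CPM with DMSO (-3.67, edgeR adjusted p = 1.3e-40), and its groups did not overlap. Pmpca, a subunit of the presequence peptidase, had -4.20 and no overlap either, and Yme1l1, an inner membrane protease, had -1.94. The rhomboid protease Parl rose to 491 CPM with SR1848, against 209 CPM with DMSO (1.23). The disaggregase Clpb had 0.88, which was -0.13 and not called with oocyte scaling.

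Protein methyltransferases, which Pcmt1 and Ntmt1 belong to, split into 6 higher, 7 lower and 4 not called of 17 (median -0.080; 3 higher and 10 lower with oocyte scaling). The Pcmt1 relative Pcmtd1 rose to 88.9 CPM with SR1848, against 34.7 CPM with DMSO (1.36), and Prmt2 rose to 243 CPM with SR1848, against 67.8 CPM with DMSO (1.84). Icmt fell (-2.33), and Pcmtd2 had -1.03 at 1.93 and 3.96 CPM, a call lost with upper-quartile factors. Of 4 tested genes of proteins that Ntmt1 methylates, 3 fell, Set (-2.56), Cenpa (-1.69) and Rcc1 (-1.14), and 1 was not called, while all 4 were lower with oocyte scaling.

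Relatives of Rnf125 and genes of RIG-I signalling were higher in 7 of 13, lower in 5 and not called in 1 (median 0.37), but 1 was higher, 6 lower and 6 not called with oocyte scaling. The related ligase Rnf166 rose to 21.2 CPM with SR1848, against 3.80 CPM with DMSO (2.47), and Rnf138 (0.99) and the kinase Tbk1 (1.24) rose, both without a call under oocyte scaling. Rnf114, the most abundant, had 399 CPM with SR1848 and 328 CPM with DMSO (0.28), which was not called with total counts (0.11) and was -0.54 with oocyte scaling.

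Genes of the catalytic spliceosome, in which Frg1 is found, were lower in 21 of 30, higher in 3 and not called in 6 (median -0.77; 27 lower and 0 higher with oocyte scaling). Crnkl1 fell to 29 CPM with SR1848, against 314 CPM with DMSO (-3.43), and Dhx8, the helicase that releases spliced mRNA, fell by 2.42 on the log2 scale, both without overlap. Slu7, a second-step factor, fell by 1.99. Syf2, the most abundant, had 286 CPM with SR1848 and 307 CPM with DMSO (-0.099, edgeR adjusted p = 0.26) and was called lower with RLE factors, total counts, oocyte scaling and DESeq2.

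HUSH and H3K9 silencing genes, the partners of Pphln1, were lower in 9 of 17, higher in 5 and not called in 3 (median -0.76; 14 lower and 1 higher with oocyte scaling). The other HUSH subunits also fell: Tasor had 13.5 CPM with SR1848 and 46.9 CPM with DMSO (-1.79), and Mphosph8 32.9 and 55.7 CPM (-0.76). The heterochromatin proteins Cbx3 (-2.62) and Cbx5 (-1.89) and the methyltransferase Suv39h1 (-1.65) fell. Atf7ip, the most abundant, had 0.37, which was -0.38 with oocyte scaling.

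**Figure D4:**
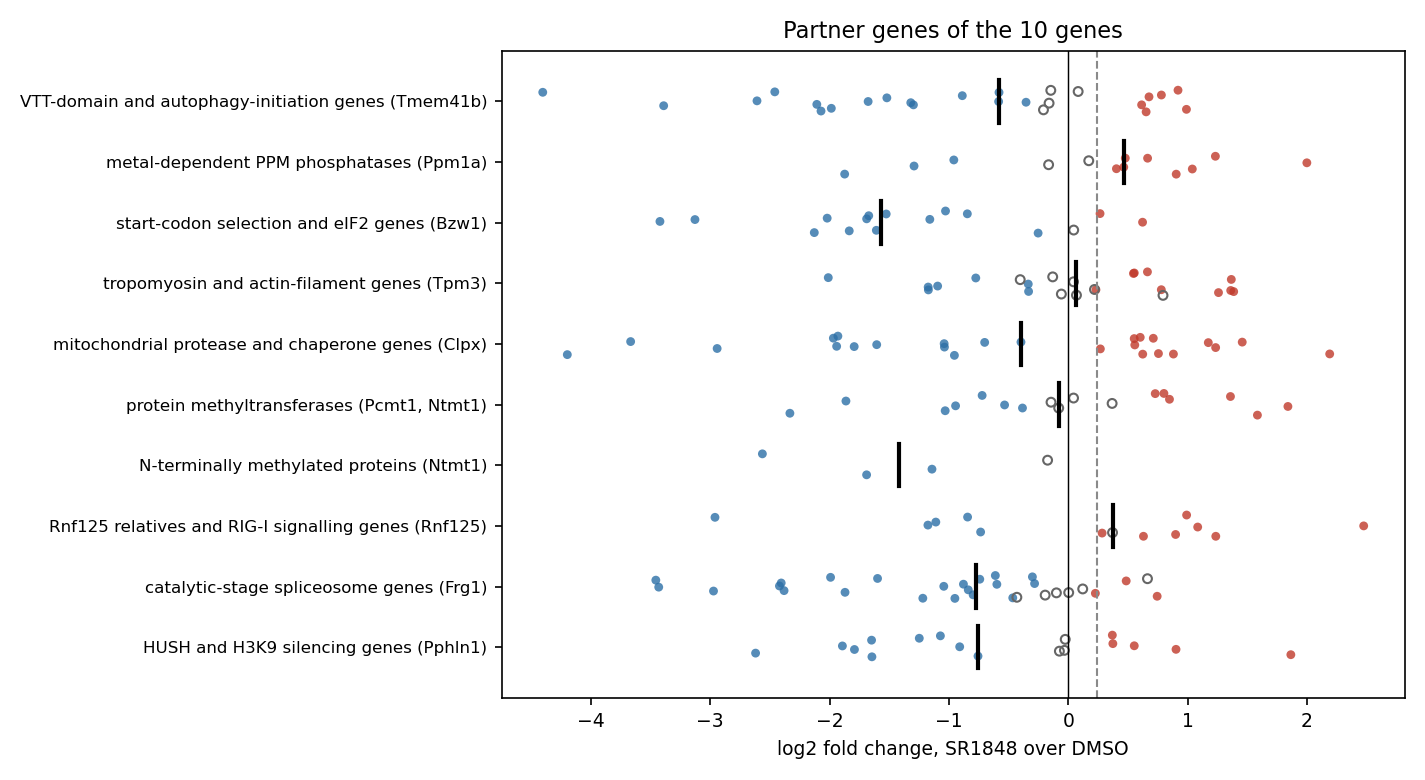
Log2 fold change, SR1848 over DMSO, of the tested genes in the 10 partner lists (red called higher, blue called lower, open not called). The short bar is the list median and the dashed line the median of all tested genes, 0.24. The eIF2 list of Bzw1 has the lowest median, -1.57, and the phosphatase list of Ppm1a the highest, 0.46.

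Whether the genes varied together between embryos of 1 group was examined over their 45 pairs in each group, with permutation tests adjusted over all 90. In the 80 SR1848 embryos 8 of 45 pairs were correlated, in the 50 DMSO embryos 32 of 45, all positively. The median Spearman rho was 0.13 with SR1848 (-0.14 to 0.50) and 0.40 with DMSO (0.067 to 0.73). Over all pairs of tested genes the median rho was -0.002 with SR1848 and 0.001 with DMSO, and over pairs of the 3292 called falls 0.051 and 0.075. Those 3292 reach down to 20 CPM in DMSO embryos, while each of the 10 genes had a mean of at least 116 CPM there. The share of called pairs was not computed over other genes or genes of like abundance. Nothing particular to the 10 genes is therefore read from the counts of pairs. With total counts in place of TMM factors the counts were 13 pairs with SR1848 and 23 with DMSO. The difference between the groups was not tested. Counting error, which was larger in SR1848 embryos as given above, moves with it, and its part was not tested.

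Clpx with Ntmt1, Tpm3 with Ntmt1 and Tmem41b with Clpx, whose promoters are printed above, were the 3 pairs of highest rho in DMSO embryos. Clpx and Ntmt1 had a Pearson r of 0.73 and a rho of 0.73 with DMSO (n = 50; permutation p = 1e-05 for each, the smallest the test can give; adjusted p = 0.0001 and 0.00018), and 0.70 without the 2 embryos farthest out. The same pair had r 0.27 and rho 0.29 with SR1848 (n = 80; permutation p = 0.0163 and 0.0107, adjusted p = 0.0387 and 0.0266), and r 0.23 without 2. Tmem41b and Clpx had r 0.36 and rho 0.32 with SR1848 (permutation p = 0.00127 and 0.00339, adjusted p = 0.00476 and 0.0127; r 0.32 without 2) and r 0.74 and rho 0.72 with DMSO (p = 1e-05 for each, adjusted p = 0.0001 and 0.00018; r 0.71 without 2). The pair was thus positive in both groups.

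Tmem41b and Ntmt1 were the closest pair in SR1848 embryos, with r 0.53 and rho 0.50 (permutation p = 1e-05 for each, adjusted p = 0.0001 and 0.00018; r 0.47 without 2), against r 0.53 and rho 0.57 with DMSO (p = 0.0001 and 3e-05, adjusted p = 0.00075 and 0.00034; r 0.51 without 2). Of the 8 pairs correlated in SR1848 embryos, 5 include Tmem41b. Bzw1 and Pphln1 had r -0.18 and rho -0.14 with SR1848 (permutation p = 0.102 and 0.216, adjusted p = 0.167 and 0.294; r -0.11 without 2) and r 0.50 and rho 0.53 with DMSO (p = 0.00015 for each, adjusted p = 0.00096 for each; r 0.50 without 2). In DMSO embryos rho was positive for 45 of 45 pairs with TMM factors and for 44 with total counts, where the lowest was -0.02. Without the 2 embryos farthest out r was negative for 2 pairs, Ppm1a with Frg1 (-0.081) and Frg1 with Ntmt1 (-0.043).

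**Figure D5:**
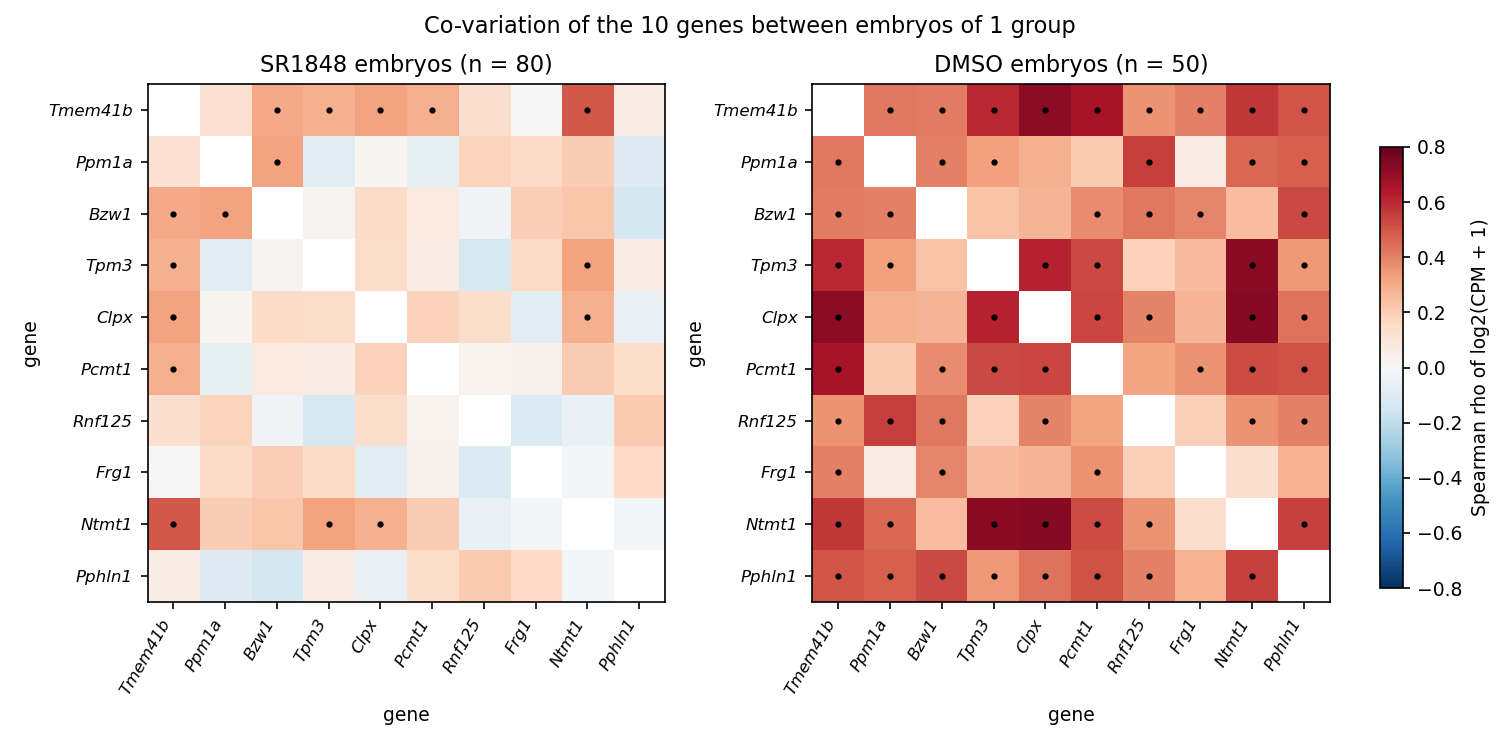
Spearman rho of log2(CPM + 1) for each pair of the 10 genes, in SR1848 embryos (left, n = 80) and DMSO embryos (right, n = 50), on a colour scale from -0.8 to 0.8. Dots mark the 8 pairs with SR1848 and the 32 with DMSO that passed at an adjusted p of 0.05.

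No single embryo carried the highest values of all 10 genes. In SR1848 embryos 7 embryos shared the 10 highest values, S22 holding 3 and S23 holding 2, and 8 embryos shared the 10 lowest. Of the 80, 31 were among the highest 8 for none of the genes, and no embryo was for more than 6. In DMSO embryos 5 embryos shared the 10 highest values, W21 holding 5 of them, and 4 shared the 10 lowest, W47 holding 5. The sum of the 10 genes was 725 ± 143 CPM with SR1848, from 494 CPM in S47 to 1252 CPM in S23, and 6181 ± 1221 CPM with DMSO, from 4076 CPM in W37 to 9948 CPM in W21.

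Each gene was also compared with 3 measures of the embryo, 60 tests in all. Mitochondrially encoded genes took 5.42 ± 2.80% of counts with SR1848 and 4.60 ± 1.92% with DMSO, and 30 oocyte transcripts took 2.35 ± 0.949% and 1.31 ± 0.377%. An association is called by the adjusted p of rho. None was called with the total count. In DMSO embryos Clpx was lower where the oocyte share was higher (r -0.54, rho -0.50, permutation p = 4e-05 and 0.00018, adjusted p = 0.0012 and 0.0108; r -0.44 without the 2 embryos farthest out). Ntmt1 (r -0.58, rho -0.46, permutation p = 2e-05 and 0.00081, adjusted p = 0.0012 and 0.0214; r -0.40 without 2) and Ppm1a (r -0.49, rho -0.45, permutation p = 0.00039 and 0.00145, adjusted p = 0.0078 and 0.0217; r -0.40 without 2) showed the same sign. Tmem41b (r -0.40, adjusted p of r 0.0413 and of rho 0.0556), Rnf125 (r -0.38, 0.0425 and 0.0908) and Pphln1 (r -0.42, 0.0344 and 0.137) passed on r alone in DMSO embryos. In SR1848 embryos 3 genes passed on r alone with the oocyte share, also with a negative sign: Ppm1a (r -0.30, rho -0.31, permutation p = 0.0059 and 0.00556, adjusted p = 0.0425 and 0.0556; r -0.27 without 2), Rnf125 (r -0.30, rho -0.30, permutation p = 0.00638 and 0.00741, adjusted p = 0.0425 and 0.0556; r -0.29 without 2) and Clpx (r -0.29, rho -0.29, permutation p = 0.00809 and 0.00915, adjusted p = 0.0485 and 0.061; r -0.29 without 2). With total counts in place of TMM factors 2 of the 10 genes were called with the oocyte share in SR1848 embryos, and 1 was called when the 6 SR1848 embryos with a low total count or few detected genes were left out. In SR1848 embryos Ppm1a was higher where the mitochondrial share was higher (r 0.35, rho 0.36, permutation p = 0.00148 and 0.00107, adjusted p = 0.0222 and 0.0214; r 0.30 without 2), and Bzw1 passed on rho alone (r 0.25, rho 0.34, permutation p = 0.0257 and 0.00255, adjusted p = 0.119 and 0.0306; r 0.31 without 2). Neither of these associations with the mitochondrial share passed with total counts.

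Genes named by a Gm number, a Rik name or an Ensembl identifier were left out of the list that follows. Among the rest, the genes beside the 10 that tracked their mean most closely in each group were listed by Spearman rho, as a description. In the 80 SR1848 embryos they were Glrx3 (0.64), Gtf2f2 (0.58), Gabarapl2 (0.58), Ddx10 (0.57) and Ier3ip1 (0.57). In the 50 DMSO embryos they were Psmd12 (0.85), Tomm22 (0.80), Vmp1 (0.78), Pno1 (0.77) and Ncbp2 (0.76). All 10 of these genes were lower with SR1848, for example Psmd12, a proteasome lid subunit, at 36.9 ± 18.9 CPM with SR1848 and 221 ± 73.4 CPM with DMSO (log2 fold change -2.58). Glrx3, an iron-sulphur cluster carrier, had 41.2 ± 29 CPM with SR1848 and 138 ± 41.7 CPM with DMSO (-1.74). Gabarapl2 and Vmp1 are also in the autophagy list of Tmem41b.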

How the data were processed

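RNA of 130 single 2-cell embryos (80 with SR1848, 50 with DMSO) was measured. The submitters' processing notes list kallisto 0.46.1, DESeq2 1.32.0, Trim Galore 0.6.2, bcl2fastq and R 3.5.1, beside the builds mm10 and hg19, without their roles. The authors deposited kallisto estimated counts per transcript (119358 entries, of which 28.1% of values are not whole within 1e-06). The authors also deposited their own comparison per transcript, with base means (signal), log2 fold changes and p-values, from which only gene identifiers and the order of entries were used. Groups come from the titles, which mark the controls NT, and the treatment label of all 50 controls names 0.1% DMSO.

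Of the mouse transcripts 117194 were given a gene by that table and 371 by GENCODE M21. The 1788 transcripts with no gene (0.806% of counts) and 5 other entries (0.0258%) stayed out of library sizes and tests. Counts were summed per gene and rounded. edgeR 4.0.16 (R 4.3.3) tested 13192 genes kept by filterByExpr with TMM factors and the robust quasi-likelihood test, two-sided, with Benjamini-Hochberg adjustment over all of them and calls at 0.05 (biological coefficient of variation 0.771). TPM values divide counts by M21 transcript lengths. Correlations used log2(CPM + 1) and 100000 resamples, two-sided. Reads carry no molecular identifiers. The fit was tested on simulated data in which 200 of 13192 genes were changed, as many up as down. It recovered 84.4% of genes changed 2-fold and 100% of those changed 4-fold, and called 0.127% of unchanged genes. In the embryos 82.1% of genes were called, so these rates do not cover a change of that breadth or a shift in scaling. No 2 libraries of a group agreed within sampling noise (lowest chi-square per gene 21.1 with SR1848 and 19.0 with DMSO).

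Members and lists were chosen with earlier results of these data known. Genes were named by rule: the 10 genes and their relatives, the 3 smallest p-values and the most abundant gene of each partner list, the 5 most alike in each group, and the 5 nearest in rank. Genes with Gm, Rik or Ensembl names were left out of the most alike. Eif2s3x, Hba-a2, Hbb-bt, Smcp, Mat2a, Timd2, Sumo2 and Nr5a2, and the single transcripts, were named after their values were seen. The 3′ UTR and promoter comparisons were also chosen then. Alternatives were RLE, upper-quartile, total-count and oocyte scaling, other filters, DESeq2 1.42.0, limma-voom 3.58.1, a replicate block, leaving out low embryos, and single transcripts.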

Additional observations from a re-analysis of the deposited data

How the results depend on the processing

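The 10 genes were lower under every setting run. Their median log2 fold change of -3.20 ran from -4.03 with oocyte scaling to -2.98 with upper-quartile factors, and was -3.63 with transcripts tested one by one. Oocyte scaling moved the median of all tested genes from 0.24 to -0.63 and the share of called genes that were higher from 55.5% to 24.1%. It turned the sign of Ppm1b (-0.36), Actb (-0.34), Clpb (-0.13), Rnf114 (-0.54) and Atf7ip (-0.38), and left 7 phosphatases and 7 genes of the RIG-I list called, against 11 and 12. Without a filter 17626 of 29982 genes were called, 10187 higher and 7439 lower, against 10836 of 13192. The cause of these shifts was not tested. Among 139 comparisons of main results with an alternative, 135 stayed the same. For counts this means a total called, higher and lower together, within 1.5 times that of the main result. For the median of the 10 genes it means the same sign and a change below the median pooled SD. Shifts between higher and lower, such as those with oocyte scaling above, are not seen by this tally. For single genes 546 comparisons stayed the same, 15 moved, 5 reversed sign, 6 lost a call and 6 gained a call.

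Embryo numbers do not pair the groups: over 50 shared numbers the correlation of deviations had a median of 0.0244 (-0.225 to 0.138), and 0 embryos correlated best with their own number. With the replicate block 10075 of 12516 genes were called, and the median of the 10 genes was -3.23. The lowest levels limit precision: Ntmt1 rests on 3 counts in 1 SR1848 embryo.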
